A study of Mus musculus with 15 samples.

Results

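Sperm-egg fusion genes were followed through mouse spermatogenesis in single-cell RNA sequencing of dissociated testes. The 8 genes, Izumo1, Izumo2, Izumo3, Izumo4, Spaca6, Tmem95, Dcst1 and Dcst2, were taken by symbol from the 32285 genes of the feature table, which is the same in all 15 libraries. All mice were adult DBA/2J males, and each library came from 1 testis of 1 mouse, with 3 libraries in each of 5 groups. T mice received JQ1, a small molecule that competes for the bromodomains of BRDT and related proteins, at 50 mg/kg daily into the peritoneum for 3 wk and were taken at the end of dosing at 10 wk of age. VC-T mice received vehicle and were also 10 wk old. R mice had the same JQ1 course and were taken 6 wk after the last dose at 16 wk of age, beside vehicle mice of that age (VC-R). Untreated mice (UC) were 15 wk old and were the controls of both T and R, so that age and treatment cannot be told apart in T against UC. JQ1 also binds bromodomain proteins other than BRDT and reached the whole animal, so the groups are no model of BRDT loss in germ cells alone.

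A fertilizing sperm sheds the acrosome, the vesicle over its nucleus, and so exposes the membrane proteins that bind and fuse with the egg. IZUMO1 is the sperm ligand of the egg receptor JUNO, and SPACA6, TMEM95, DCST1 and DCST2 are further sperm membrane proteins without which mouse sperm do not fuse. IZUMO2, IZUMO3 and IZUMO4 are relatives of IZUMO1 that share its Izumo domain. In the testis such genes are transcribed ahead of their use, in meiotic and haploid germ cells, before nuclear packaging silences the genome.

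The 8 genes lie on 6 mouse chromosomes, and 4 of them lie in pairs. By the GENCODE vM21 annotation of GRCm38, the build (mm10) to which the authors aligned the reads, Izumo1 (ENSMUSG00000064158) spans chr7:45621811-45628823 on the plus strand in 7 exons, and its 3′ end overlaps Rasip1 (chr7:45627488-45639093) on the same strand. Counts of Izumo1 are therefore uncertain where reads could belong to Rasip1. Izumo2 (ENSMUSG00000066500) lies on the same chromosome at chr7:44708742-44719844, plus strand. Izumo3 (ENSMUSG00000028533) is at chr4:92144329-92147234 on the minus strand, Izumo4 (ENSMUSG00000055862) at chr10:80702184-80705373 on the plus strand, and Tmem95 (ENSMUSG00000094845) at chr11:69876684-69878018 on the minus strand. Spaca6 (ENSMUSG00000080316, chr17:17827158-17843009, plus strand) holds the microRNA genes Mir99b, Mirlet7e and Mir125a within its span. Dcst1 (ENSMUSG00000042672, chr3:89350219-89365253, minus strand) and Dcst2 (ENSMUSG00000109293, chr3:89361975-89377549, plus strand) are divergent neighbours whose annotated spans overlap.

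Promoter sequence is shown for the members with a match to the cyclic AMP response element, the site bound by the CREM family of testis activators, and for the shared start region of Dcst1 and Dcst2. RefSeq windows (GRCm38.p6) from 250 bases before to 50 bases after the start were found for 7 of the 8 members. The full element TGACGTCA was searched on both strands and stands in 588 of 32851 windows (1.79%) and in 1 member window. The shorter TGACGT, which overlaps it, stands in 2468 windows (7.51%) and in 2 member windows. The Izumo1 sequence is chr7:45621561-45621810, plus strand, with the element starting 96 bases before the start in capitals. The Tmem95 sequence is chr11:69878056-69878305, minus strand, with the shorter motif starting 208 bases before the start in capitals. The 65 bases between the RefSeq starts of Dcst1 and Dcst2 are chr3:89365254-89365318, given on the plus strand with no motif marked. A match of letters is a description and no evidence of binding.
Izumo1: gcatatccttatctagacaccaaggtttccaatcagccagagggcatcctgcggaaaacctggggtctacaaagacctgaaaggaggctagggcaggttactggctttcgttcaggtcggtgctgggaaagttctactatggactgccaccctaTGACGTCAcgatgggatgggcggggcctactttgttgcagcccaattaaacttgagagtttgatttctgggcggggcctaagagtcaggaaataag
Tmem95: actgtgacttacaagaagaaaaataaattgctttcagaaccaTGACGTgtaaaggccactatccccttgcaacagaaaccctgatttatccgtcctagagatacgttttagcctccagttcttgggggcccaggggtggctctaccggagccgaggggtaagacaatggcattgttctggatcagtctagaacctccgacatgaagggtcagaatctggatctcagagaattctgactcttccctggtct
Dcst1-Dcst2: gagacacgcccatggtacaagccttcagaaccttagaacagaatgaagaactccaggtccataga

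After filtering, 72362 cells of 101610 barcodes were kept, with 9673587 to 98724982 unique molecular identifiers (UMIs) in a library. Clusters were named by marker transcripts, from which Izumo1 and the other members were left out, as were the members from the genes used for clustering and for ordering the cells. Of the kept cells 21187 were spermatid-like, 15242 were spermatocyte-like and 23439 were spermatozoa-like, where spermatozoa-like names the latest haploid cells. T held 7 spermatozoa-like cells in all and VC-T 1 held 0, so that no test of T was made in that class. VC-T 1 stood apart from VC-T 2 and VC-T 3 and was left out of the comparisons with T, which were also run with it. Pairs of libraries shared 0 to 46 cell barcodes, with a median of 10.

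Transcripts of 6 of the 8 members were highest in spermatid-like cells. On the CPM scale, which sets the summed UMIs of each library and class to the same total, Izumo1 in UC stood at 3.67 ± 1.42 in spermatocyte-like cells, stood at 145 ± 14.1 at the spermatid-like stage and was at 17.2 ± 2.63 among spermatozoa-like cells (mean ± SD, n = 3 mice, here and for the other members). Spaca6 had 2.65 ± 0.50, 94.2 ± 11.0 and 27.6 ± 0.89 CPM in the same order. Tmem95 had 1.25 ± 1.07, 62.9 ± 7.35 and 9.92 ± 1.01 CPM. These 3 fusion factors thus shared a spermatid-like maximum with lower levels on either side, without overlap between the libraries of the 3 classes.

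The DCST pair had the same order of classes at lower counts. Dcst1 had 1.17 ± 0.57, 37.1 ± 3.88 and 3.08 ± 1.10 CPM in the order used above, and Dcst2 had 1.503 ± 0.75, 36.0 ± 5.34 and 4.202 ± 0.44 CPM. For Dcst1 the ranges of the spermatocyte-like libraries (0.64 to 1.78) and the spermatozoa-like libraries (1.98 to 4.17) lay close together, so their order is not firm at these counts. The 2 genes followed each other along pseudotime with a Pearson r of 0.934 over 51 bins, as a description over bins that share libraries.

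The relatives of Izumo1 differed from it and from each other. Izumo4 was already at 263 ± 26.96 CPM in spermatocyte-like cells, was at 208 ± 15.5 in spermatid-like cells and had 26.0 ± 6.41 in spermatozoa-like cells. Izumo3 had 8.19 ± 1.53, 251 ± 16.9 and 172 ± 20.4 CPM, and Izumo2 had 12.3 ± 3.08, 468 ± 46.1 and 620 ± 46.0 CPM. Izumo4 was therefore the member with its maximum in spermatocyte-like cells, and Izumo2 the member with its maximum in spermatozoa-like cells. Values are counts of 3′ ends that were not divided by length, and levels of different genes are not ranked here.

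Shares of cells with a UMI were read against cell types that should lack these transcripts. In UC, 57.7% of 1355 spermatocyte-like cells had a UMI of Izumo4 (exact 95% interval 55.0 to 60.4, median depth 6715 UMIs), against 6.36% of 236 spermatogonia-like cells (3.60 to 10.3, median depth 2390.5) and 15.9% of 170 Sertoli-like cells (10.7 to 22.3, median depth 2203.5). Of the 27 Leydig-like cells 12 also had one (44.4%, 25.5 to 64.7, median depth 2612), an interval that overlaps that of spermatocyte-like cells. For Izumo2 the share was 8.64% (7.19 to 10.3) in spermatocyte-like cells, 8.48% (5.25 to 12.8) in spermatogonia-like, 21.8% (15.8 to 28.7) in Sertoli-like and 33.3% (16.5 to 54.0) in Leydig-like cells. The Izumo2 share of spermatocyte-like cells of UC was thus no higher than in these cell types and is read as background in UC. Spermatid-like cells of UC (2377 cells, median depth 4833 UMIs) had a UMI of Izumo2 in 75.5% (73.7 to 77.2), of Izumo1 in 46.4% (44.4 to 48.5) and of Dcst2 in 17.5% (16.0 to 19.1). In Sertoli-like cells the share was 4.71% (2.05 to 9.06) for Izumo1 and 1.76% (0.365 to 5.07) for Dcst2. Intervals cover counting error only.

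Along pseudotime the members peaked at different positions in 8 control libraries (UC, VC-R, VC-T 2 and VC-T 3). Germ cells were ranked into 51 bins numbered 0 to 50, and rise and fall were taken where a profile crossed 50% of its peak. Izumo4 rose at bin 7, peaked at bin 12.5 (medians over libraries, peak range 11 to 18) and fell at bin 26. Spermatocyte-like cells made up 78.5% of bins 12 to 14. In VC-T 3, VC-R 2 and VC-R 3 its peak lay at bins 15, 16 and 18, among spermatid-like cells (99.7% of bins 15 to 17, 99.9% of bins 18 to 20). Dcst2 peaked at bin 22 (20 to 25), Tmem95 at bin 24 (22 to 25) and Dcst1 at bin 24 (23 to 26), and their ranges overlap. Izumo1 and Spaca6 both peaked at bin 28.5 (28 to 29), later than Tmem95, Dcst1 and Dcst2 in each of the 8 libraries. Bins are read as positions in a rebuilt order of cells, not as time.

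**Figure D1:**
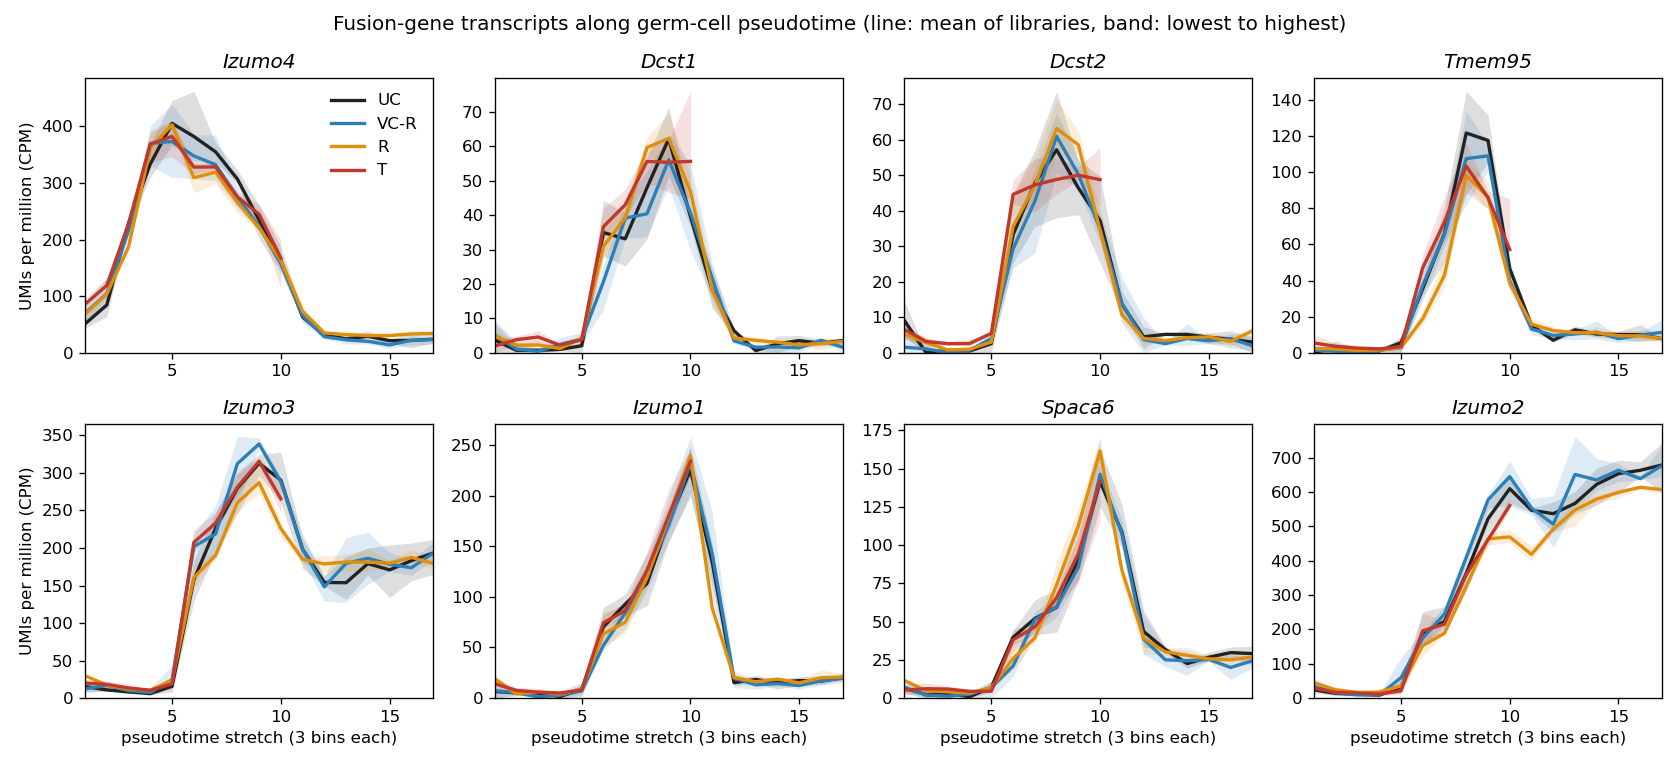
CPM of each member against pseudotime stretch, 3 bins each, in UC, VC-R, R and T. Lines are means of the libraries and bands run from the lowest to the highest library. Izumo4 is high first, Izumo1 and Spaca6 form a narrow late peak, and Izumo2 stays high to the end, while the T lines stop before the last stretches.

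The loss of transcripts at the end separated the members further. Izumo1 fell at bin 31 and in the last bins kept 8.07% of its peak (median of 8 libraries, 7.03 to 11.3). Spaca6 fell at bin 32 and kept 17.3% (14.9 to 25.9). Izumo3 peaked at bin 25.5 and kept 57.2% (52.4 to 64.1), and Izumo2, whose peak bin ranged from 27 to 50, kept 94.2% (91.6 to 98.9). By the medians over libraries, transcripts of Izumo2 and Izumo3 were thus still at 57.2% or more of their peak in the latest cells. Those of the other 6 members were at 17.3% of their peak or less by the same medians. The packaging genes Tnp1, Tnp2, Prm1 and Prm2, which act in replacing histones, took 21.5 to 22.3% of all UMIs in spermatozoa-like cells of UC. The profiles were therefore also computed without them in the total, and Izumo3 then kept 74.9% and Izumo2 95.4%. In these profiles Dcst1 peaked at bin 28 in VC-R 1, the same bin as Izumo1 there, so that the order of peaks given above did not hold in that library.

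**Figure D2:**
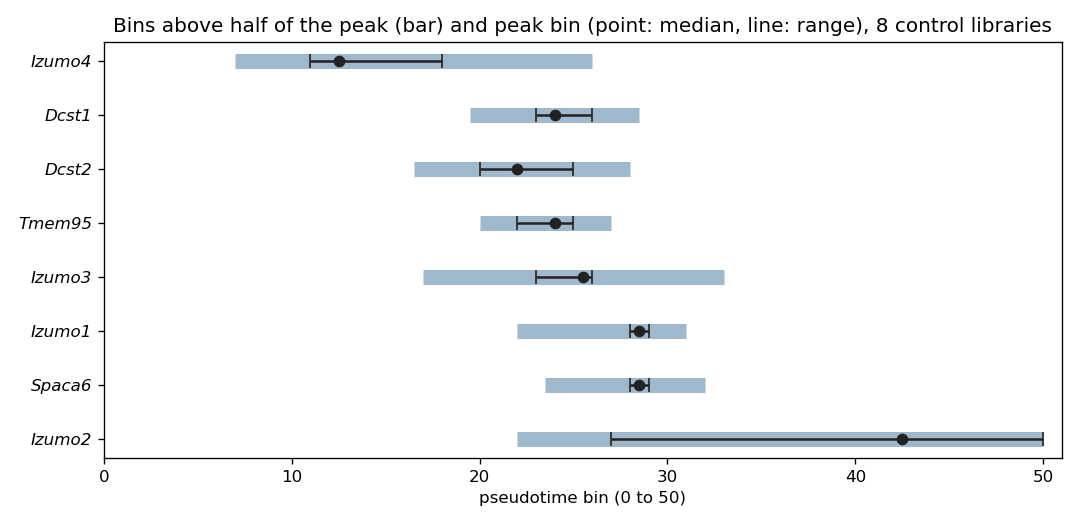
Pseudotime bins (0 to 50) between the rise and the fall of each member at 50% of its peak (bars, medians of 8 control libraries), with the peak bin (points, median, with the range over libraries). Izumo4 starts at bin 7, and Izumo2 is still above the limit at bin 50.

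Genes with the most similar profiles were listed by Pearson r of log2(CPM + 1) over the 51 bins among 14997 genes. For Izumo1 they were 1700029I15Rik (r = 0.982), 1700113H08Rik (0.979) and Spaca4 (0.978), the last encoding a sperm membrane protein of the acrosome. For Izumo2 they were Dnajc5b, Lrrc18 and 1700013G24Rik, each at 0.996, and for Izumo3 Sqor (0.990), Txndc8 (0.989) and 1700024G13Rik (0.989). For Izumo4 they were 1700018B24Rik (0.989), Mzt2 (0.988) and Gm31072 (0.985), and for Spaca6 4930404N11Rik (0.989), Kif2b (0.989) and Tex43 (0.988). Tmem95 was most like Gm11482 (0.972), Gm20389 (0.970) and Pp2d1 (0.968). Dcst1 was most like Catsper3 (0.974), a subunit of the sperm calcium channel, Spaca1 (0.971) and Naa80 (0.969), and Dcst2 was most like Map7d3 (0.970), Upf3b (0.970) and Krt88 (0.969). Bins share libraries and depth, so r is a description.

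JQ1 at the end of dosing was compared with untreated testes to ask which fusion transcripts differed while the drug was present. In spermatid-like cells, 4 members were lower in T than in UC and 0 were higher. Of all 13399 genes tested in this comparison, 47.6% were called, so the share of members called was near that of all genes, and 26.9% were called lower. No member passed a log2 fold change of 1, as 18.1% of all genes did. The members had a median of -0.15 beside 0.04 over all genes. Spermatid-like cells of T were shallower, with median depths of 2282.5 to 3227 UMIs against 4385 to 5681.5 in UC. The part of depth was not tested beyond an alternative with cells of at least 2000 UMIs. Levels below are CPM after TMM scaling, except those in stated pseudotime bins, which are CPM without it. The test is edgeR's quasi-likelihood test on UMIs summed per library with Benjamini-Hochberg adjustment over all genes.

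Izumo2 had 305, 279 and 285 scaled CPM in T 1, T 2 and T 3, and 488, 583 and 456 in UC 1, UC 2 and UC 3. All T libraries lay below all UC libraries, with a log2 fold change of -0.84 ± 0.09 (SE, edgeR adjusted p = 5.63e-06). Spaca6, one of the factors required for fusion, had 61.4, 50.7 and 61.8 in T and 92.9, 119 and 94.8 in UC. These groups did not overlap either, and the log2 fold change was -0.85 ± 0.12 (edgeR adjusted p = 6.26e-05). Izumo1, the JUNO ligand, had 109.7, 110.8 and 109.9 in T and 143, 179 and 152 in UC. The T libraries were again lower, by -0.55 ± 0.09 (edgeR adjusted p = 0.000335).

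The earlier members differed less. Izumo3 had 234, 238 and 225 scaled CPM in T and 261, 303 and 254 in UC, with no overlap and a log2 fold change of -0.26 ± 0.08 (edgeR adjusted p = 0.0206). That call was lost under 8 of 15 alternatives, among them those without T 2, T 3 or UC 2, and with scaling by total UMIs alone the difference was 0.0474. Izumo4 (0.16 ± 0.08), Dcst1 (0.06 ± 0.12), Dcst2 (0.08 ± 0.13) and Tmem95 (-0.04 ± 0.12) did not pass the test. The T libraries of these 4 members lay at 249.4 to 265, 41.5 to 45.8, 39.7 to 46.2 and 58.7 to 73.9 scaled CPM. Packaging genes, whose products replace histones, took 4.14 to 5.01% of spermatid-like UMIs in UC, 0.09 to 0.24% in T and 0.135% in VC-T 1. With scaling by total UMIs alone the median of all genes moved by 0.304, 3 members were called lower, and Izumo4, Dcst1 and Dcst2 were called higher.

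**Figure D3:**
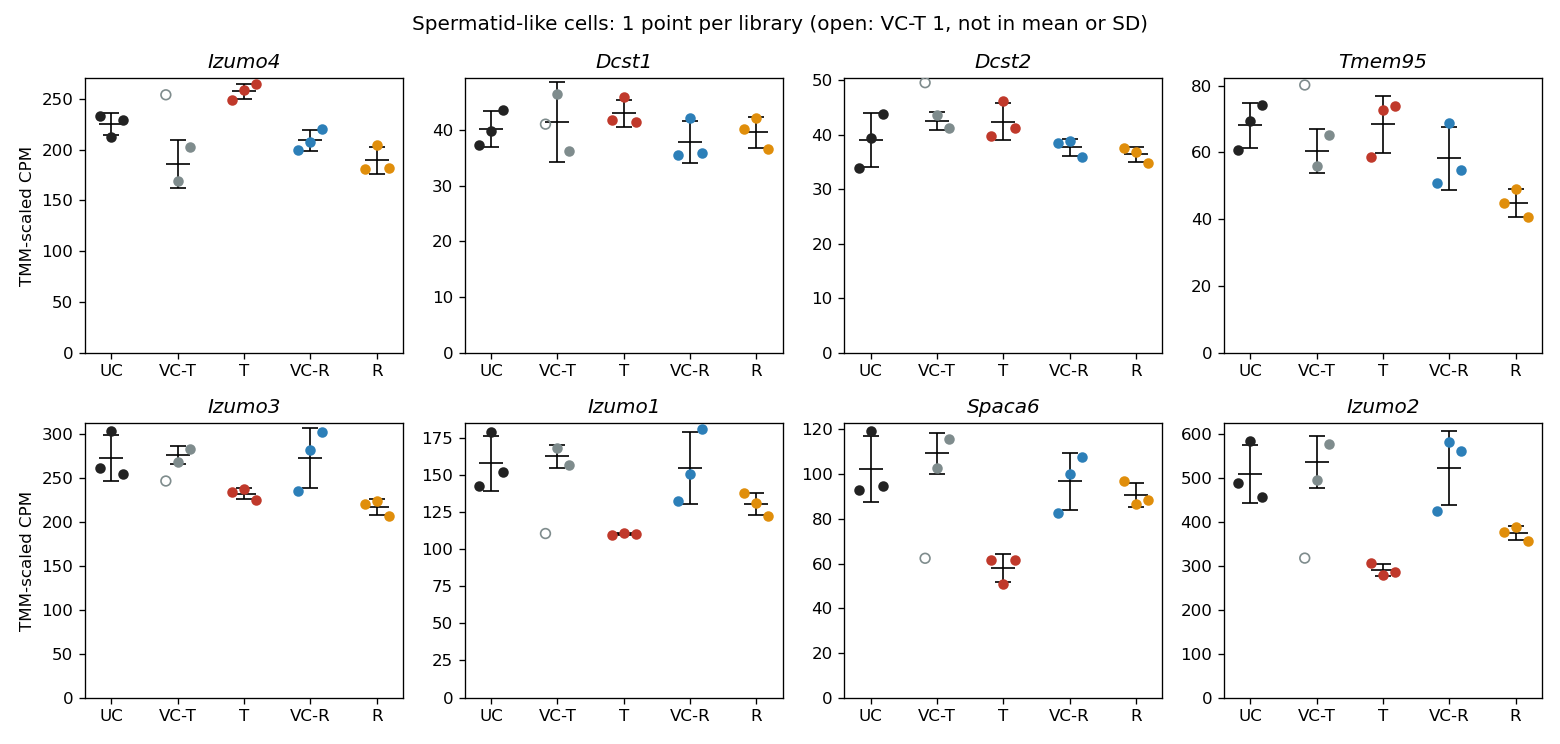
TMM-scaled CPM of each member in spermatid-like cells, with 1 point per library and the mean ± SD of each group (VC-T 1 as an open point outside the mean). For Izumo1, Izumo2 and Spaca6 the 3 T libraries lie below all UC, VC-T 2 and VC-T 3 libraries, and VC-T 1 lies near T.

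Against the vehicle mice of the same age, VC-T 2 and VC-T 3, 4 members were lower in T and 1 was higher, beside 46.2% of 14247 genes called, 27.1% lower and 19.1% higher. Izumo2 had 494 and 577 scaled CPM in these vehicle libraries, above every T library, and the log2 fold change was -0.94 ± 0.10 (edgeR adjusted p = 6.26e-05). Spaca6 was lower by -0.97 ± 0.12, Izumo1 by -0.61 ± 0.10 and Izumo3 by -0.30 ± 0.09, the last lost under 10 of 15 alternatives, those without T 1, T 2 or T 3 included. Izumo4 had 249.4, 259 and 265 in T and 169 and 202 in the vehicle libraries, and was higher in T by 0.42 ± 0.10 (edgeR adjusted p = 0.00852). With VC-T 1 kept, 0 members were called: its spermatid-like cells held 317 scaled CPM of Izumo2, 110.4 of Izumo1 and 62.3 of Spaca6, beside 305, 110.8 and 61.8 in the nearest T libraries.

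The spermatid-like cells of T lay at earlier pseudotime bins than those of UC, VC-T 2 and VC-T 3. The median bin of spermatid-like cells was 19 to 20 in T, 24 to 26 in UC and 23 and 26 in VC-T 2 and VC-T 3. In T 3.20 to 9.36% of them lay at bin 27 or later, against 36.3 to 49.0% in UC. The vehicle library VC-T 1 was like T here, with a median bin of 19 and 2.18% at bin 27 or later. Izumo1, Spaca6 and Izumo2 reach high levels at those late bins. Cells were therefore matched on pseudotime, which left 300 cells per library in T against UC and 416 in T against VC-T. In these cells, 0 members were called in either comparison (edgeR, background 3.46% and 0.953% of genes called). At an unadjusted p under 0.05 there were 1 and 2, Izumo4 in the first and Dcst2 and Tmem95 in the second. The pseudotime order was itself built from transcripts of these cells. Matching therefore cannot tell an earlier stage from late transcripts missing under JQ1, and neither was tested.

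Matched values for the 3 late members were near 0. Izumo2 was at -0.13 ± 0.09, Spaca6 at -0.10 ± 0.15 and Izumo1 at 0.09 ± 0.11 on the log2 scale in T against UC. All 4 packaging genes were still lower in matched cells, with a median of -3.39. In a draw of as many cells without matching, Izumo1, Izumo2 and Spaca6 were called lower in T against UC. In bins 27 to 29, Izumo1 had 220, 235 and 247 CPM without TMM scaling in T and 248, 229 and 199 in UC. The groups overlapped, with 27 to 196 T cells per library behind these values. In spermatid-like T against UC, scaling by total UMIs alone moved the median of all genes by 0.304, so this overlap is not on the scale of the fits.

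**Figure D4:**
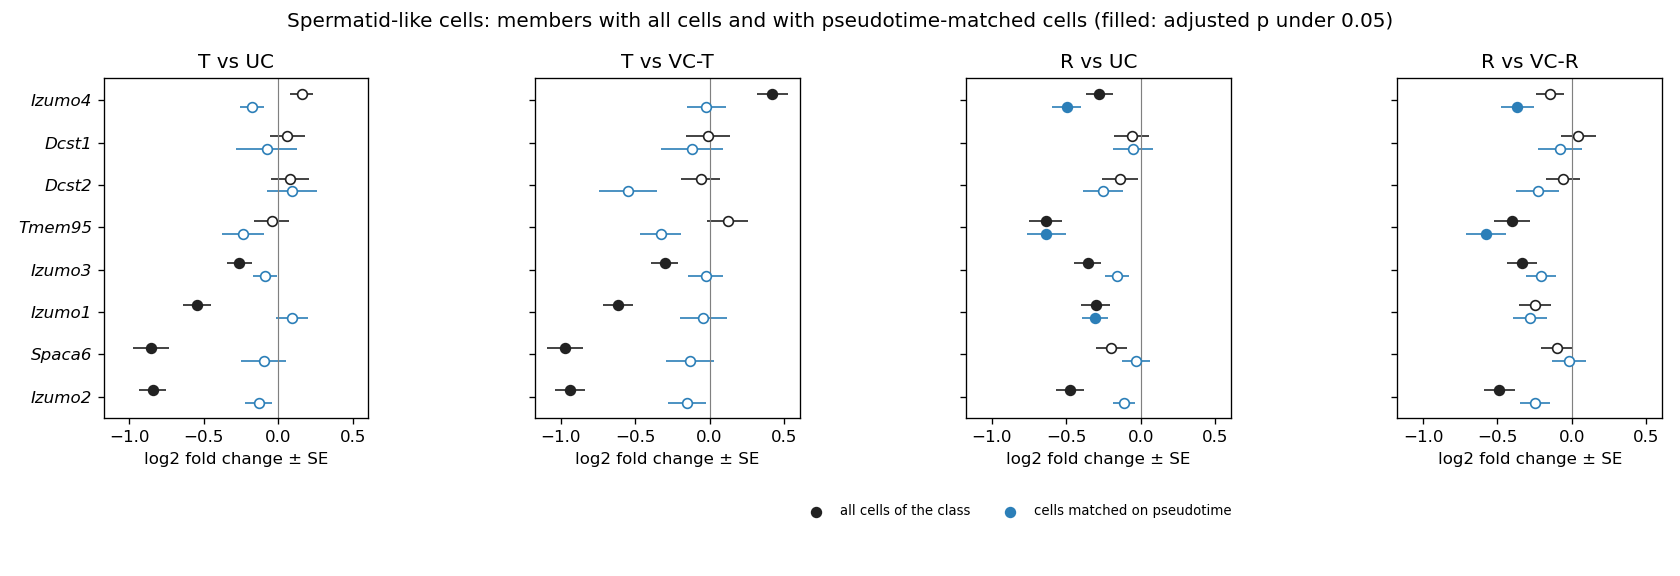
Log2 fold changes ± SE of the members in spermatid-like cells for 4 comparisons, with all cells of the class (black) and with cells matched on pseudotime (blue). Filled points have an edgeR adjusted p under 0.05. The T comparisons lose every call after matching, and Tmem95 remains called in both R comparisons.

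**Figure D5:**
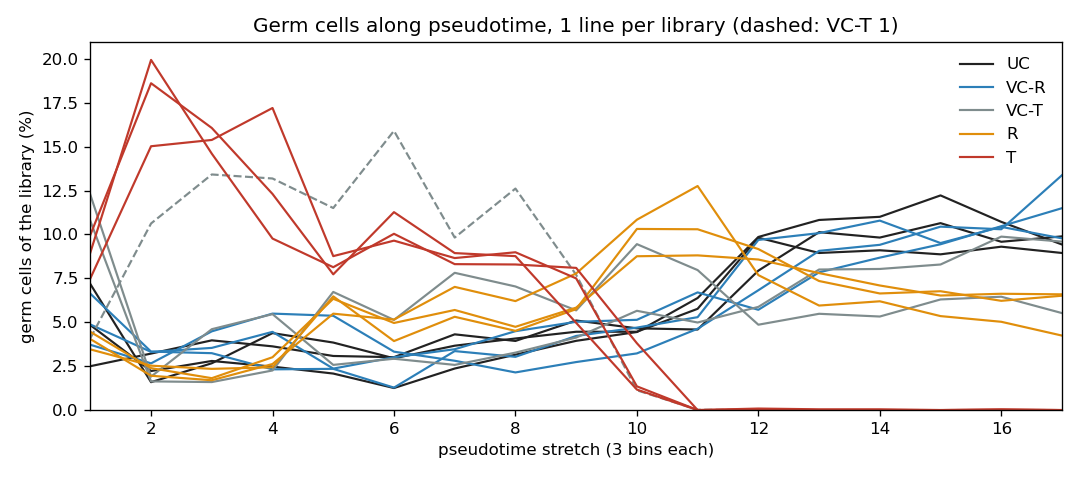
Percentage of the germ cells of each library in each pseudotime stretch, 1 line per library, with VC-T 1 dashed. T and VC-T 1 hold few cells past the spermatid-like stretches.

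Sums over all kept cells show how much of each transcript a testis suspension held relative to its other transcripts, where fewer cells of a type and less RNA per cell cannot be told apart. Izumo2 had 115, 85.7 and 91.6 scaled CPM in T and 449, 538 and 397 in UC, without overlap, and was lower by -2.34 ± 0.15 (edgeR adjusted p = 5.79e-08). In this comparison 58.1% of 17771 genes were called, 29.5% lower and 28.7% higher, and 21.9% passed a log2 fold change of 1. Spaca6 (-1.30 ± 0.15) and Izumo3 (-1.22 ± 0.12) also passed the limit of 1, Izumo1 (-0.80 ± 0.11) and Tmem95 (-0.41 ± 0.10) were lower below that limit, and Izumo4 was higher by 0.30 ± 0.11, which was lost without T 2, UC 2 or UC 3. With total UMIs alone, which moved the median of all genes by 0.611, Izumo1 was no longer called (-0.18), Spaca6 (-0.67) and Izumo3 (-0.60) were called below the limit of 1, Tmem95 turned to 0.21, and Dcst1 (0.51) and Dcst2 (0.47) were called higher. Izumo2 stayed past the limit, at -1.71.

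Recovery was then compared to ask whether fusion transcripts still differed 6 wk after the last dose. In spermatid-like cells, 5 members were lower in R than in UC and 0 were higher, beside 37.0% of 15048 genes called and 17.5% called lower, with a median of -0.29 over the members and 0.02 over all genes. Against VC-R, 3 members were lower, beside 30.5% of 15153 genes called and 12.3% called lower. The spermatid-like cells of R were shallow, with median depths of 1512.5 to 2192 UMIs against 4385 to 5681.5 in UC and 3327.5 to 7146 in VC-R, and the part of depth in these differences was not tested beyond the alternative given below.

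Tmem95, which encodes a fusion factor of the sperm membrane, was called in both comparisons. It had 44.8, 49.1 and 40.8 scaled CPM in R, 60.9, 69.5 and 74.1 in UC and 50.9, 69.0 and 54.8 in VC-R. All R libraries lay below all libraries of both control groups, and the log2 fold change was -0.64 ± 0.11 against UC (edgeR adjusted p = 0.000157) and -0.40 ± 0.12 against VC-R (edgeR adjusted p = 0.016). The call against UC held under all 15 alternatives, with values from -0.71 to -0.43, and the call against VC-R under 9 of 15. It was lost there in cells of at least 2000 UMIs, with total UMIs alone, in the unmatched draw and without R 1, R 3 or VC-R 2.

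Among the relatives of Izumo1, Izumo2 and Izumo3 were lower in both comparisons. Izumo2 had 376, 388 and 356 scaled CPM in R, 488, 583 and 456 in UC and 424, 581 and 560 in VC-R, again without overlap. Its log2 fold change was -0.47 ± 0.09 against UC and -0.49 ± 0.11 against VC-R (edgeR adjusted p = 0.00049 and 0.00187). Izumo3 was lower by -0.36 ± 0.09 and -0.34 ± 0.10, and Izumo1 (-0.30 ± 0.10) and Izumo4 (-0.28 ± 0.09) were lower against UC and not called against VC-R (-0.25 ± 0.11 and -0.15 ± 0.09). The Izumo1 call was lost without R 2, R 3 or UC 2, the Izumo4 call without R 1, R 3 or UC 1, and the Izumo3 call against VC-R without R 1, R 3, VC-R 2 or VC-R 3. Dcst1, Dcst2 and Spaca6 were called in neither comparison. In cells of at least 2000 UMIs, 2 members were called against UC and 0 against VC-R. The 2 comparisons use the same R libraries, and the T and R comparisons share UC.

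In matched cells of R, 3 members were called against UC and 2 against VC-R. Izumo4 (-0.50 ± 0.10), Tmem95 (-0.63 ± 0.13) and Izumo1 (-0.31 ± 0.09) were lower against UC, beside 39.3% of genes called and 17.5% called lower, and Izumo4 (-0.37 ± 0.11) and Tmem95 (-0.58 ± 0.13) against VC-R, beside 29.0% called and 10.9% called lower. Izumo2 was not called in matched cells (-0.11 ± 0.08 and -0.25 ± 0.10). Along pseudotime, Tmem95 in bins 15 to 17 was at 15.3, 23.2 and 18.2 CPM in R, 34.8, 31.6 and 40.0 in UC and 32.7, 28.6 and 50.49 in VC-R. The R libraries were lowest there, whereas in bins 21 to 23 the means were 98.2 in R, 122 in UC and 107 in VC-R and the groups overlapped. In bins 24 to 26 the R libraries, at 85.0, 94.7 and 79.1 CPM, were again below all of UC (106 to 132) and VC-R (101 to 115). Izumo2 and Izumo3 also had bins where R lay below both control groups. In bins 27 to 29 Izumo2 was at 452 to 490 CPM in R, 568 to 644 in UC and 560 to 690 in VC-R. Izumo3 was at 214 to 232, 261 to 328 and 285 to 294 CPM there. For both genes R and UC overlapped in bins 24 to 26. Differences in single bins were not tested.

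Between the control groups, 0 members differed in spermatid-like cells of VC-R against UC with edgeR, 0 at an unadjusted p under 0.05 and 0 with DESeq2, beside 0.0160% of 12479 genes called. The effect of JQ1 against vehicle differed between the end of dosing and recovery for Izumo4, Spaca6 and Tmem95, beside 49.0% of 15423 genes called. Over all kept cells, Tmem95 (-0.58 ± 0.09, edgeR adjusted p = 0.00129) and Izumo1 (-0.33 ± 0.08) were lower in R than in UC, beside 12.3% of 19374 genes called and 4.88% called lower. The Izumo1 call was lost without R 1 or R 3. Tmem95 had 18.1, 20.1 and 17.4 scaled CPM in R, 25.3, 28.2 and 29.6 in UC and 16.3, 27.3 and 24.6 in VC-R, so that R lay below UC and overlapped with VC-R.

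In spermatozoa-like cells Izumo2 had 522, 531 and 488 scaled CPM in R and 627, 671 and 545 in UC, without overlap, and was lower by -0.25 ± 0.07 (edgeR adjusted p = 0.0201). Izumo4 had 36.9, 31.3 and 34.5 in R and 29.96, 19.3 and 27.5 in UC, and was higher by 0.43 ± 0.11 (edgeR adjusted p = 0.00971). In this comparison 8.47% of 12006 genes were called, 3.25% lower and 5.22% higher. The Izumo2 call was lost without R 1, R 3, UC 1 or UC 2, and the Izumo4 call without UC 2. In matched cells Izumo2 was not called (-0.16 ± 0.07), whereas Izumo4 was (0.39 ± 0.12, edgeR adjusted p = 0.0289). Spermatozoa-like cells lay at median bins 38 to 39 in R and 41 to 42 in UC. Their median depths were 4022 to 6018 UMIs in R and 2453 to 2896 in UC, and the part of depth was not tested. Against VC-R, 0 members and 0 of 12046 genes were called with edgeR, 2 members passed an unadjusted p under 0.05, and DESeq2 called 0 members.

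In spermatocyte-like cells Izumo4, the member with its maximum there, passed the test in none of the 4 comparisons. It had 264, 293 and 234 scaled CPM in T, 253, 253 and 297 in UC and 275 and 313 in VC-T 2 and VC-T 3, and the ranges overlapped. Its log2 fold change was -0.03 ± 0.09 in T against UC, -0.17 ± 0.11 in T against VC-T, 0.02 ± 0.06 in R against UC and -0.04 ± 0.11 in R against VC-R. The other members had at most 23.1 scaled CPM in any library of this class. Dcst1 was higher in T than in UC by 1.41 ± 0.43 (edgeR adjusted p = 0.0439, beside 12.0% of genes called and 5.21% called higher), at 3.86, 2.38 and 3.15 against 0.65, 1.80 and 1.11 scaled CPM. Spaca6 was higher in T than in VC-T by 1.6005 ± 0.43 (edgeR adjusted p = 0.0356, beside 9.93% called and 3.55% called higher). The first call was lost with DESeq2 and without T 1, T 3, UC 1, UC 2 or UC 3, and the second with DESeq2, with VC-T 1 and without T 1, T 3, VC-T 2 or VC-T 3. In T, 1.54% of these cells (1.246 to 1.885) had a UMI of Dcst1 and 2.44% (2.06 to 2.86) one of Spaca6. Spermatogonia-like cells of T had 0.53% (0.14 to 1.34) and 1.45% (0.73 to 2.58), with overlapping intervals. Sertoli-like cells of T had 1.33% (0.03 to 7.21) for each. Packaging genes took 0.009 to 0.036% of spermatocyte-like UMIs in T and 0.35 to 0.41% in UC. Whether either difference lies above background was not tested.

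In R against UC, counts of Izumo2 (0.82 ± 0.14), Izumo3 (0.84 ± 0.17) and Spaca6 (0.95 ± 0.27) in spermatocyte-like cells were higher, beside 6.99% of 13378 genes called and 4.25% called higher. In UC, 6.27% of these cells (5.04 to 7.70) had a UMI of Izumo3 and 1.92% (1.26 to 2.80) one of Spaca6. Both shares were below the 12.4% of Sertoli-like cells (7.81 to 18.3 for each gene). Spermatogonia-like cells had 3.81% (1.76 to 7.12) and 1.27% (0.263 to 3.67), lower but with overlapping intervals. The shares in UC thus do not set these transcripts, or Izumo2, apart from background. Whether the 3 differences lie above background was not tested. The Spaca6 call was lost under 9 of 15 alternatives, those without R 2, R 3 and each UC library included. In matched cells Izumo2 (0.72 ± 0.17) and Izumo3 (0.74 ± 0.21) were still called, beside 476 of 11143 genes, and Spaca6 was not (0.65 ± 0.36). The Izumo2 share was 23.0, 22.0 and 36.8% in R 1, R 2 and R 3. Median depths there were 7887 to 11711 UMIs, against 5839.5 to 8435 in UC, and the part of depth was not tested. Packaging genes, which belong to later cells, took 0.52 to 0.72% of the UMIs of these R cells and 0.35 to 0.41% in UC, and their part in the result was not tested. Against VC-R, 0 members and 0 of 13481 genes were called with edgeR, 4 members passed an unadjusted p under 0.05, and DESeq2 called 0 members.

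Other genes of fertilization gave context. Of 9 other fusion and oocyte-adhesion genes, 7 were tested in spermatid-like cells, and all 7 were lower in T than in UC, with a median log2 fold change of -0.79 beside 0.04 over all genes. Over all genes 47.6% were called in this comparison, 26.9% lower and 20.7% higher, beside which the counts of each list stand. Cd9 (-2.57 ± 0.26) and Cd46 (-2.32 ± 0.28), both membrane proteins, had the smallest p. Of 13 acrosome and zona-binding genes, 5 were lower, among them Hyal5 (-0.66 ± 0.11) and Spaca3 (-0.49 ± 0.08), and 3 were higher, among them Zpbp2 (0.44 ± 0.07) and Dpy19l2 (0.60 ± 0.10). Of 7 endoplasmic reticulum chaperones, which fold sperm surface proteins, Calr3 was lower (-2.53 ± 0.15) and 5 were higher, among them Clgn (0.51 ± 0.10) and Pdia3 (0.44 ± 0.09). All 4 packaging genes were lower, Tnp1 by -3.85 ± 0.22 and Tnp2 by -5.29 ± 0.29. In matched cells, 0 fusion genes, 1 acrosome gene, 0 chaperones and 4 packaging genes were called, beside 3.46% of all genes.

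In R against UC, spermatid-like cells had 3 lower and 1 higher of the 7 fusion genes tested, in a comparison where 37.0% of all genes were called, 17.5% lower and 19.5% higher. Llcfc1 (-0.55 ± 0.09) and 4930451I11Rik (-0.49 ± 0.09), which encode the fusion factors SOF1 and FIMP, were lower, and Cd46 was higher (0.49 ± 0.11). Of the 13 acrosome genes, 7 were lower, with a median of -0.26 beside 0.02 over all genes, among them Spaca3 (-0.57 ± 0.09) and Spaca4 (-0.53 ± 0.10). Of the chaperones, Calr was lower (-0.31 ± 0.09) and Hspa5 higher (0.54 ± 0.13). Prm2 (-0.29 ± 0.09) and Tnp2 (-0.27 ± 0.10) were lower with all cells, whereas in matched cells all 4 packaging genes were higher, with a median of 0.71, beside 21.9% of all genes.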

How the data were processed

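Single-cell 3′ RNA-seq libraries of testis from 15 mice were analyzed. The authors aligned reads to mm10 and counted molecules with Cell Ranger, and the files used here hold those deposited counts without normalization. The submitters' processing notes name version 3.0.0, the matrix headers name a later one, and whether intron reads were counted is not given in the sources used here.

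Barcodes needed 500 genes, 1000 UMIs and a mitochondrial share under 30% to be kept, and the highest 5.4% of doublet scores in each library were dropped. Leiden clusters (resolution 1.2) were named from at least 3 detected markers. Diffusion pseudotime replaced the study's Slingshot. UMIs were summed per library and class (at least 10 cells) and tested with edgeR 4.0.16 (R 4.3.3) after its low-count filter and TMM, with DESeq2 1.42.0 as an alternative. The test was checked on simulated data with 200 changed genes. VC-T 1 was left out of T against VC-T, following the study. Members passed at an adjusted p under 0.05. All 8 members are named, with at most the 2 smallest p per list and direction. Members and lists were chosen with earlier results of these data known. The free RNA correction of the study was not applied. Depth was 9673587 to 98724982 UMIs per library, and counting precision is given with each share of cells with a UMI.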

Additional observations from a re-analysis of the deposited data

Results flagged for a closer look

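The difference between the JQ1 effect at the end of dosing and the JQ1 effect 6 wk later was tested in spermatid-like cells as (T minus VC-T) minus (R minus VC-R), with edgeR over 15423 genes, of which 49.0% were called. For 3 members this difference passed an adjusted p under 0.05. Izumo4 had a difference of 0.62 ± 0.14 on the log2 scale (edgeR adjusted p = 0.00113), where T was higher than VC-T by 0.42 ± 0.10 and R was not called against VC-R (-0.15 ± 0.09, edgeR adjusted p = 0.25). The T value was -0.0213 in matched cells and was not called with VC-T 1, and the R value was 0.02 with scaling by total UMIs alone. Tmem95 had a difference of 0.57 ± 0.20 (edgeR adjusted p = 0.0211), where R was lower than VC-R by -0.40 ± 0.12 and T was not called against VC-T (0.12 ± 0.14). Spaca6 had a difference of -0.81 ± 0.18 (edgeR adjusted p = 0.000886), where T was lower than VC-T by -0.97 ± 0.12 and R was not called against VC-R (-0.10 ± 0.11). The T value of Spaca6 was -0.13 in matched cells and was not called with VC-T 1, and the R call of Tmem95 was lost under 6 of 15 alternatives. T and R spermatid-like cells differ in pseudotime position and in depth, and the part of either in these differences was not tested. No test for a single outlying library was run in groups of 3, and VC-T 1, which stood apart from the other vehicle libraries, was left out of this contrast.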

How the results depend on the processing

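Of 1451 values of single members under alternatives, 100 uncalled ones changed sign and stayed uncalled. The draw without matching, scaling by total UMIs alone and leaving packaging genes out of the total were chosen after seeing the data. Shallow T and R spermatid-like cells, few late cells in T and low counts of 7 members in spermatocyte-like cells limit these counts. The cause of each change below was not tested.

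In spermatid-like cells, called members went from 4 to 0 in T against UC with matched cells, and from 5 to 0 in T against VC-T with matched cells and with VC-T 1. In R against UC they went from 5 to 2 with cells of at least 2000 UMIs, 2 with total UMIs, 2 in the unmatched draw and 3 with matched cells, and in R against VC-R from 3 to 0, 1 and 1 under the first 3 of these. In spermatozoa-like cells, R against UC went from 2 to 0 with 1 fit over all groups and to 1 with total UMIs or matched cells, and R against VC-R from 0 to 1 with no low-count filter. Over all cells, R against UC went from 2 to 1 with 1 fit over all groups or total UMIs. In spermatocyte-like cells, T against UC went from 1 to 2 with no filter and to 0 with DESeq2, deeper cells, 10% of cells removed as doublets, matched cells and the unmatched draw. T against VC-T went from 1 to 6 with no filter, to 2 with 1 fit over all groups or deeper cells, and to 0 with DESeq2, 10% removed, VC-T 1 or the unmatched draw. R against UC went from 3 to 0 with 1 fit over all groups, and R against VC-R from 0 to 2 with no filter.

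Signs turned for Izumo3 with total UMIs in spermatid-like cells (0.0474 in T against UC, 0.034 in T against VC-T), for Izumo1 (0.0903, T against UC) and Izumo4 (-0.0213, T against VC-T) with matched cells, and over all cells with total UMIs for Tmem95 (0.21), Dcst1 (0.51) and Dcst2 (0.47).

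The replicate numbers did not pair the samples: correlations of same-numbered deviations ran from -0.254 to 0.331, and in 0 of 11 comparisons with 3 pairs were all over 0.1. With the replicate block, called members went from 1 to 0 in spermatocyte-like T against VC-T, from 5 to 4 in spermatid-like T against VC-T, from 0 to 1 in spermatozoa-like R against VC-R, from 6 to 5 in T against UC over all cells and from 2 to 3 in R against UC over all cells, with the same count elsewhere.

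Leaving out 1 library at a time gave 3 to 4 called members in spermatid-like T against UC, 4 to 5 in T against VC-T, 3 to 5 in R against UC (3 without R 3), 1 to 4 in R against VC-R (1 without R 1, R 3 or VC-R 2) and 0 to 0 in VC-R against UC. Spermatocyte-like cells gave 0 to 3 in T against UC (3 without T 2), 0 to 5 in T against VC-T (5 without T 2), 2 to 3 in R against UC and 0 to 5 in R against VC-R (5 without VC-R 1). Spermatozoa-like cells gave 0 to 2 in R against UC (0 without UC 2) and 0 to 2 in R against VC-R (2 without VC-R 1). All cells gave 5 to 6 in T against UC and 1 to 5 in R against UC (1 without R 1 or R 3, 5 without UC 3). The count of 6 members highest in spermatid-like cells held without each UC library, in VC-R and without the packaging genes.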

Other observations

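In spermatozoa-like cells of R against UC, acrosome genes included 4 higher and 1 lower of 13 tested, beside 8.47% of all genes called, 5.22% higher and 3.25% lower. R cells of this class lay at earlier median bins (38 to 39 against 41 to 42 in UC). They were also deeper, at medians of 4022 to 6018 against 2453 to 2896 UMIs. The part of position or depth in the differences of these lists was not tested. Spaca4 (0.67 ± 0.08, edgeR adjusted p = 3.72e-07) and Spaca3 (0.51 ± 0.09, edgeR adjusted p = 7.57e-05), both sperm acrosome proteins, were higher, and Adam3, a sperm surface protein that binds the zona pellucida, was lower (-0.25 ± 0.07). Among the other fusion genes Eqtn, a protein of the acrosomal membrane, was higher (0.83 ± 0.13, edgeR adjusted p = 2.7e-05). The chaperone Calr3 was lower (-0.26 ± 0.08). Against VC-R, 0 genes of these lists were called with edgeR. At an unadjusted p under 0.05 there were 7 acrosome genes, 1 fusion gene, 2 chaperones and 0 packaging genes.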
